A study of Mus musculus with 24 samples.

Results

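The 10 genes described here encode the T cell antigen receptor complex and the receptors and regulators that act with it: Cd3d, Cd3e, Cd5, Cd6, Cd28, Ctla4, Foxp3, Icos, Cd4 and Cd8a. They were taken by symbol from 20728 named genes measured on arrays of mouse lung, and all 10 were found, on 32 array features. For each gene the feature with the highest mean over the 24 arrays was used. Each array measured total RNA of one whole-lung sample of C57BL/6 mice aged 9 to 12 weeks, labelled with Cy3 on a one-colour Agilent array. Bleomycin, a DNA-damaging drug that leads to lung fibrosis, was given to 15 samples in 3 groups of 5: with gapmer 3 (GP DNM3OS-3), with gapmer 1 (GP DNM3OS-1) and with a control gapmer (GP Ctrl). PBS was given to 9 samples in 3 groups of 3, with the same gapmers. Every group had thus received a gapmer, an antisense DNA strand with modified ends whose bound RNA is cut by RNase H. Gapmers 1 and 3 are aimed at the long noncoding RNA Dnm3os. The sources used here give no dose, time or sex. No label says which samples came from separate animals, so each p-value reflects the spread among these samples only, which may be technical.

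T cells recognise antigen through a variable receptor that carries no signalling tail of its own. The CD3 chains, among them the products of Cd3d and Cd3e, carry the signal into the cell, while Cd4 and Cd8a encode coreceptors that bind MHC molecules and mark helper and cytotoxic T cells. Cd28 and Icos give costimulation, Ctla4 competes with Cd28 for the same ligands and restrains activation, and Cd5 and Cd6 are related surface receptors that tune the receptor signal. Foxp3 is the transcription factor that defines regulatory T cells, which also carry Ctla4 and Icos. In lung, Cd4 is not restricted to T cells, since some macrophages and dendritic cells can express it, and a subset of dendritic cells can carry Cd8a.

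Several of the 10 genes are neighbours in the genome. In the GRCm38.p6 annotation Cd28, Ctla4 and Icos are successive protein-coding genes on chromosome 1, Cd3d and Cd3e follow Cd3g on chromosome 9, and Cd5 and Cd6 are successive protein-coding genes on chromosome 19. RefSeq promoter sequences were matched for 6 of the 10 genes in 7 windows of 250 bases before the start site. The ETS core, AGGAAG or CTTCCT on the opposite strand, was present in 5 of these 7 windows, and in 29.48% of 32851 mouse promoter windows of the same length. The RUNX core, TGTGGT or ACCACA, was present in 0 of the 7 windows and in 14.05% of all windows. The GATA core, the TCF/LEF core and the TATA box were also searched. Each was present in 1 of the 7 windows, and in 9.99%, 13.83% and 12.37% of all windows. Of the cores searched, the ETS core was the most frequent in the 7 windows. These matches only describe the letters in the windows. The window of Cd8a and the upstream window of Foxp3, a gene that moved with the others on the arrays, held no ETS core. The other Foxp3 window held an ETS core but lies inside the annotated gene. The 4 promoters with an ETS core before the annotated gene are shown 5′ to 3′, picked for that core. They are given without bases inside the gene, from RefSeq (GRCm38.p6), with the ETS core in capitals.
Cd3d (chr9:44981536-44981768, plus strand): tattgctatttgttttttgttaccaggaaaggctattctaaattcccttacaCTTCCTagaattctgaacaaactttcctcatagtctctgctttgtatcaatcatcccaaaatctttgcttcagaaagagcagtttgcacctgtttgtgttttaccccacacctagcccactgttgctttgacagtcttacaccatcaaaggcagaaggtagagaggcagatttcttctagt
Cd3e (chr9:45009664-45009861, minus strand): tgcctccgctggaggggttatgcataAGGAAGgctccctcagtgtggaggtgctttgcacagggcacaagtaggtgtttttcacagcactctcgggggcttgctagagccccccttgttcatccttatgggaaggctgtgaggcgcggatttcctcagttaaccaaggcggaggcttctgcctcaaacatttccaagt
Cd5 (chr19:10739027-10739224, minus strand): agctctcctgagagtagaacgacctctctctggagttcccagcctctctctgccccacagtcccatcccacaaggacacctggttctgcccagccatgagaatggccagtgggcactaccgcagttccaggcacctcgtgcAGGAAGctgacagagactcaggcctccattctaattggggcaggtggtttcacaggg
Ctla4 (chr1:60908775-60909024, plus strand): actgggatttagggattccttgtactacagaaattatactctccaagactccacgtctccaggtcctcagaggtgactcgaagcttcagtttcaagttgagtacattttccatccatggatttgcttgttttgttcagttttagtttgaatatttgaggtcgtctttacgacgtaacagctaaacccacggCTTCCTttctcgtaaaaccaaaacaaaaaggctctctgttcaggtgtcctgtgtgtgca

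Values are log2 intensities, so that a difference of 1 is a doubling. They ran from 5.03 to 18.2 over the table, and a gene's residual SD had a median of 0.14. The number of arrays limits the precision. Dnm3os, the RNA the gapmers are aimed at, lay at 6.40 ± 0.22 with gapmer 3, 6.18 ± 0.19 with gapmer 1 and 6.90 ± 0.17 with the control gapmer in bleomycin samples (SD, n = 5 each). It was lower by limma with gapmer 3 (log2 change -0.50, adjusted p = 0.00293) and with gapmer 1 (log2 change -0.72, adjusted p = 0.000186). In PBS samples the changes of -0.25 with gapmer 3 (adjusted p = 0.577) and -0.45 with gapmer 1 (adjusted p = 0.0882) did not pass. Dnm3os averaged 6.10 with gapmer 3 and 5.89 with gapmer 1 there, against 6.34 with the control gapmer, and the first 2 of these means lay below 6.11, the 25th percentile of all gene means, here called the dim limit, so that low signal limits these changes. Lung marker genes such as the alveolar gene Ager and the endothelial gene Cdh5 were bright in all groups, and the summed intensity of 6 lung markers lay between 616900 and 717700 on every array. Scgb1a1 and Sftpc, near 18 in every group, weigh most in that sum, so it says little of the other markers. With bleomycin under the control gapmer Ager fell by 0.44 (adjusted p = 0.028) and Cdh5 by 0.73 (adjusted p = 1.19e-05, limma).

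Replicate 3 of the bleomycin group with the control gapmer stood apart in some thymus genes. There Dntt, the template-free DNA polymerase of developing lymphocytes, read 11.56, against 6.66 to 7.44 on the other 23 arrays. Rag1, which cuts receptor genes for rearrangement, read 10.22 there, against 5.45 to 6.04 elsewhere, and Prss16, a protease of the thymic cortex, read 9.59, against 5.86 to 7.41. Ccl25 and Ptcra also stood apart, at 10.96 and 7.22 there, against at most 9.42 and 6.23 on the other arrays. Rag2 and Foxn1 read only 5.93 and 5.89 on that array, below the dim limit. Tbata read 8.09 there, within the 7.50 to 8.45 of the other arrays. The summed intensity of the 8 thymus markers was 7526 on this array and between 1043 and 1396 on the others. The same array was the highest of its group for 7 of the 10 T cell genes, so the comparisons with that group are also given without it. The part of the thymus genes in the results with all arrays was otherwise not tested.

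One spot also stood apart. The Cd8a feature with the highest mean read 12.45 in replicate 2 of the PBS group with gapmer 3, where the 9 other features of the same transcript read 7.17 to 7.42. In the other 2 samples of that group the chosen feature read 7.68 and 7.56. The SD of that group was 2.79 with this feature and 0.01 with the median of the others. Cd8a is therefore given both by this feature and by the median of the 9 other features, an alternative chosen after seeing the data.

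**Figure D1:**
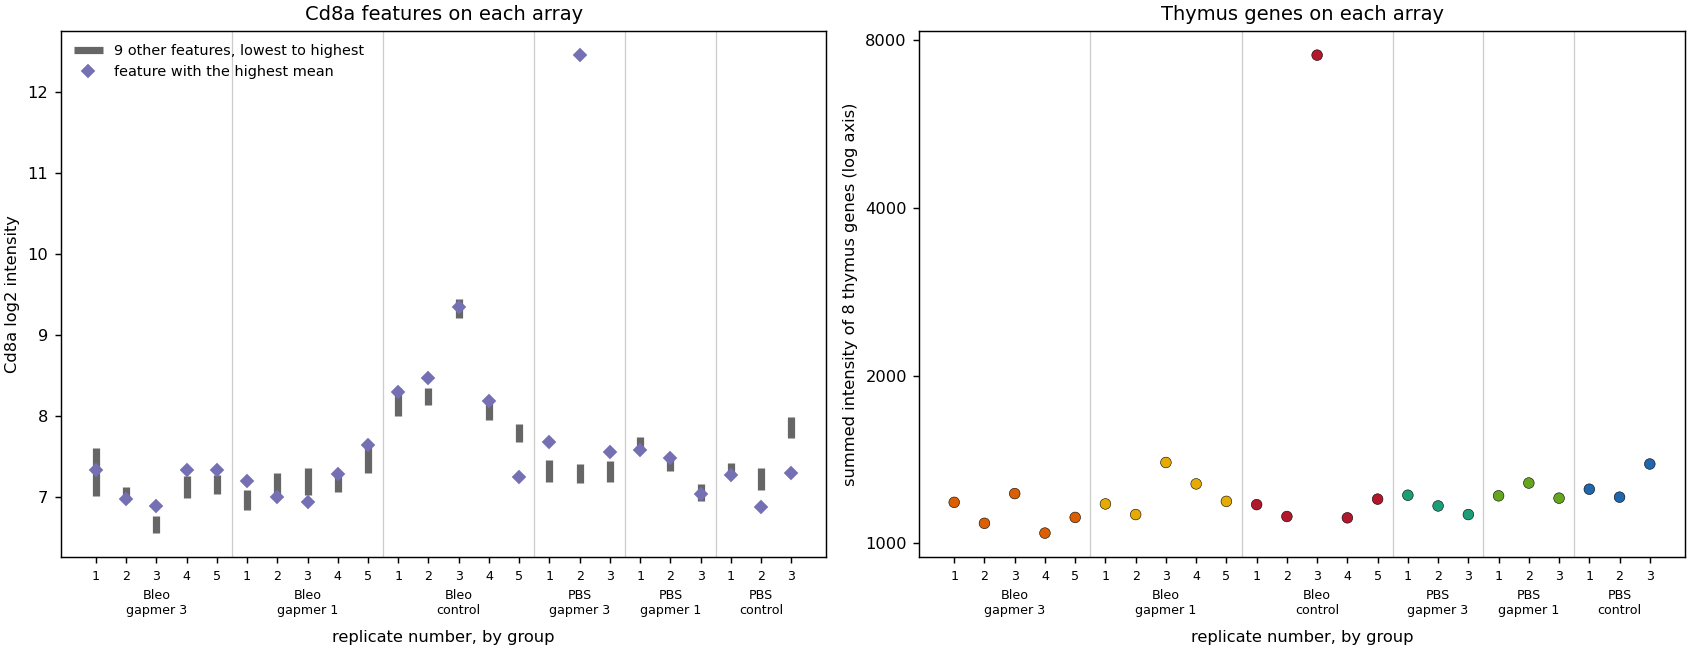
Left, log2 intensity of Cd8a on each of the 24 arrays, as the feature with the highest mean (diamonds) and the lowest to highest of 9 other features (bars). Right, the summed intensity of 8 thymus genes on each array on a log axis. The chosen Cd8a feature leaves the other features at 12.45 in replicate 2 of PBS with gapmer 3, and the thymus sum reaches 7526 in replicate 3 of bleomycin with the control gapmer.

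Bleomycin with the control gapmer was compared with PBS with the control gapmer to see how the T cell genes respond to lung injury. Of the 10 genes, 9 were higher in bleomycin samples by limma at an adjusted p under 0.05, where 14.5% of all 20728 genes were higher. The largest changes were those of Cd5, 2.72-fold, and Foxp3, 2.59-fold, and the smallest that passed was that of Cd4, 1.55-fold. The median log2 change of the 10 genes was 1.06, beside -0.02 over all genes. For 8 of the 10 genes the arrays of both groups did not overlap, as for 15.1% of all genes in that direction. In whole lung, more T cells and more RNA per T cell cannot be told apart.

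Cd5 read 10.83, 10.95, 11.06, 10.82 and 10.49 in bleomycin samples with the control gapmer, against 9.40, 9.25 and 9.50 in PBS samples with the control gapmer. Every bleomycin sample lay above every PBS sample, and the log2 change was 1.45 ± 0.13 (SE, adjusted p = 5.17e-08, limma). Cd6, its relative and genomic neighbour, averaged 10.70 ± 0.26 and 9.47 ± 0.27 in the same groups (SD, n = 5 and 3). The log2 change of Cd6 was 1.23 ± 0.15 (SE). A second, dim Cd6 feature rose by 0.31 (adjusted p = 0.00411).

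Foxp3, the regulatory T cell factor, read 7.70, 7.83, 7.65, 7.61 and 7.42 in bleomycin samples with the control gapmer, against 6.12, 6.10 and 6.57 in PBS samples. The groups did not overlap, and the log2 change was 1.38 ± 0.15 (SE, adjusted p = 5.55e-07, limma). Icos, the inducible costimulator, read 9.10, 9.25, 9.06, 9.22 and 8.82, against 7.87, 7.71 and 8.02 in PBS samples. Its lowest bleomycin sample lay above its highest PBS sample, with a log2 change of 1.23 ± 0.12 (SE), and a second Icos feature changed by 1.12. Ctla4, the inhibitory receptor, averaged 6.85 ± 0.15 and 5.92 ± 0.10 (SD, n = 5 and 3), a log2 change of 0.93. Since its PBS level was below the dim limit of 6.11, this change understates that of the RNA if the signal there is background.

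The receptor chains were also higher. Cd3d averaged 11.10 ± 0.22 and 10.13 ± 0.17, and Cd3e 10.98 ± 0.21 and 10.20 ± 0.30, in bleomycin and PBS samples with the control gapmer (SD, n = 5 and 3). Their log2 changes were 0.97 and 0.78, and neither gene's groups overlapped. Cd28, the main costimulatory receptor, read 8.71, 8.79, 9.07, 8.67 and 8.02 in bleomycin samples, against 7.89, 7.91 and 8.09 in PBS samples. Its lowest bleomycin sample lay within the PBS range, and its log2 change was 0.69 ± 0.16 (SE, adjusted p = 0.00159, limma).

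The coreceptors differed from the other genes in their measurement. Cd4 read 9.97, 10.12, 10.64, 9.96 and 9.80 in bleomycin samples with the control gapmer, against 9.18, 9.55 and 9.68 in PBS samples, with no overlap and a log2 change of 0.63 ± 0.15 (SE, adjusted p = 0.0018, limma). This is 1 of 11 Cd4 features. The other 10 had mean levels of 5.98 to 6.17, near the dim limit, and their median changed by 0.17 (adjusted p = 0.0795). The chosen Cd8a feature changed by 1.15 (adjusted p = 0.216), and the median of its 9 other features, at 8.29 ± 0.57 and 7.49 ± 0.30 (SD, n = 5 and 3), by 0.81 (adjusted p = 0.00708). When only the groups compared were fitted, the chosen feature passed as well (adjusted p = 0.0367, limma).

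Without the array high in thymus genes, the log2 changes were 1.39 for Cd5, 1.37 for Foxp3, 1.23 for Icos, 1.14 for Cd6, 0.94 for Ctla4, 0.89 for Cd3d, 0.70 for Cd3e, 0.58 for Cd28 and 0.49 for Cd4, and all 9 passed (limma, adjusted p of 0.00448 or less). Cd8a, by its other features, changed by 0.56 without that array (adjusted p = 0.0057). The calls of the 9 genes thus did not rest on it.

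**Figure D2:**
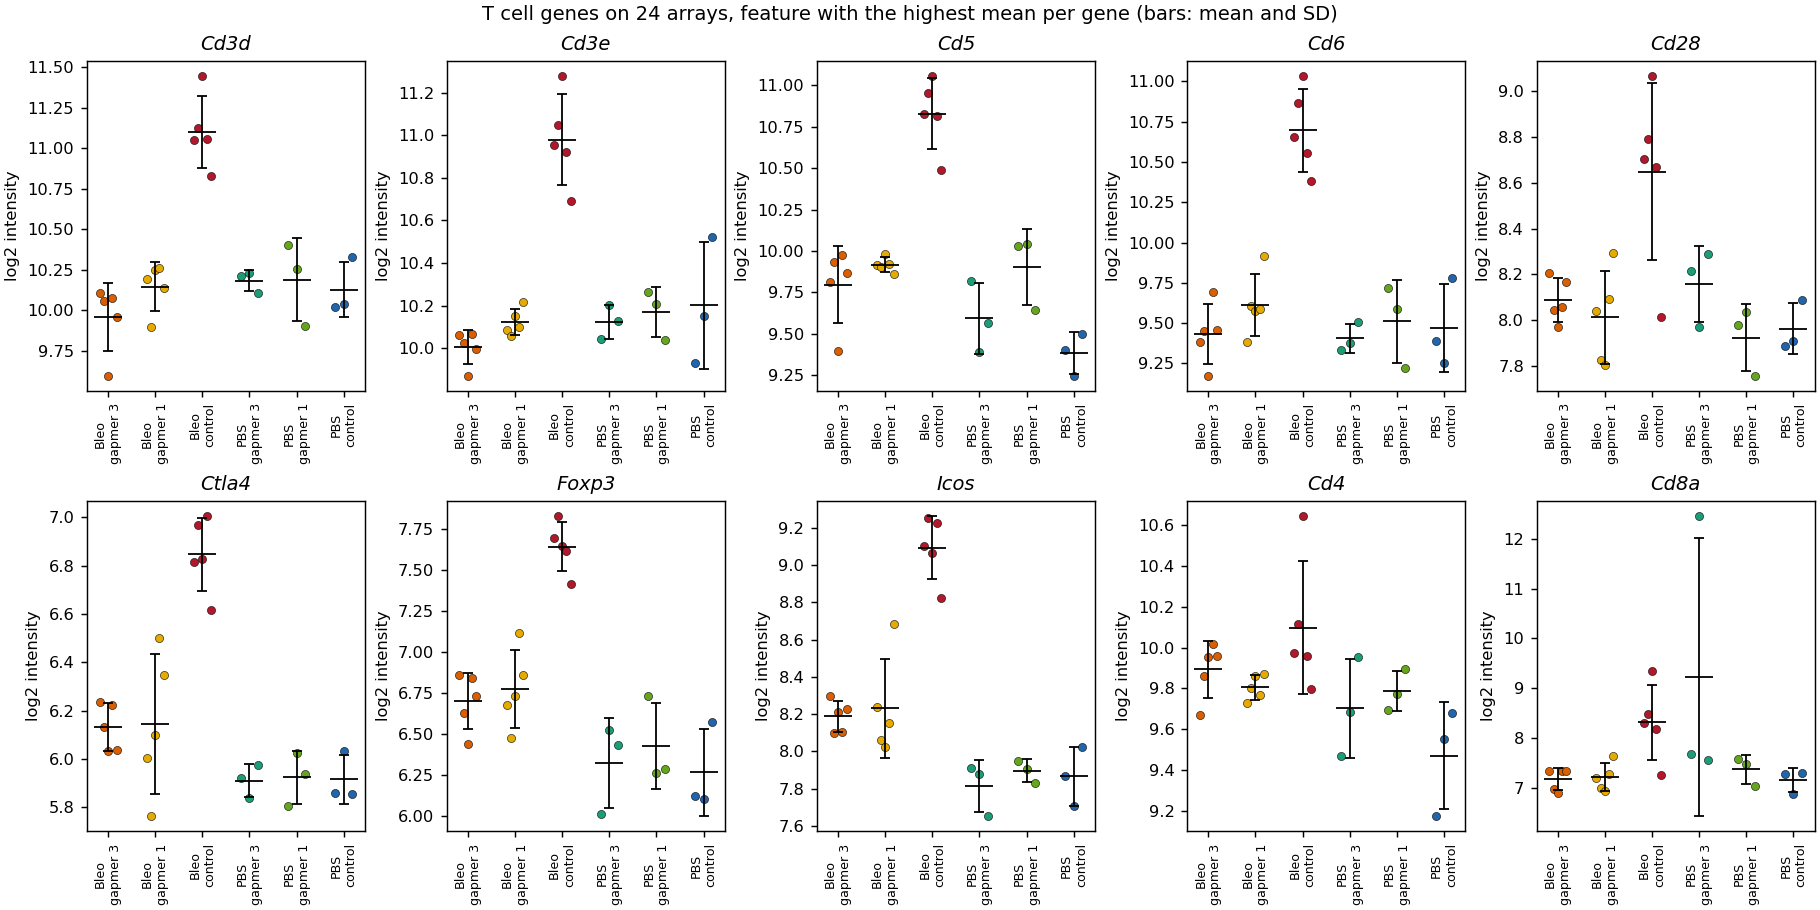
Log2 intensity of the 10 genes on 24 arrays, one point per sample in 6 groups, with the mean and SD of each group. Bleomycin samples with the control gapmer lie highest for all genes but Cd8a, whose PBS group with gapmer 3 holds the spot at 12.45.

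Both gapmers were then compared with the control gapmer within bleomycin samples, which asks whether silencing of Dnm3os goes with a change in the injured lung. With gapmer 3, 8 of the 10 genes were lower (7.52% of all genes were lower), and with gapmer 1 the same 8 were lower (5.08% of all genes). The exceptions were Cd4 and the chosen Cd8a feature. The median log2 change of the 10 genes was -0.96 with gapmer 3 and -0.86 with gapmer 1, beside 0.01 and 0.02 over all genes. The arrays of both groups did not overlap for 7 of the 10 genes with each gapmer, as for 8.03% of all genes with gapmer 3 and 3.41% with gapmer 1 in that direction. Both comparisons share the 5 control gapmer samples.

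Among the receptor genes, Cd3d read 10.11, 10.06, 9.60, 10.07 and 9.96 with gapmer 3 and 10.19, 9.90, 10.25, 10.26 and 10.14 with gapmer 1, against 11.05, 11.13, 11.44, 11.05 and 10.83 with the control gapmer. No gapmer sample reached the lowest control sample. The log2 changes of Cd3d were -1.14 ± 0.12 with gapmer 3 (SE, adjusted p = 1.41e-06) and -0.95 ± 0.12 with gapmer 1 (adjusted p = 2.06e-05, limma). Cd3e averaged 10.01 ± 0.08 with gapmer 3, 10.12 ± 0.06 with gapmer 1 and 10.98 ± 0.21 with the control gapmer (SD, n = 5 each), log2 changes of -0.97 and -0.86.

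Cd6 fell most with both gapmers among the 8 genes that passed. It read 9.38, 9.45, 9.17, 9.69 and 9.46 with gapmer 3 and 9.38, 9.61, 9.58, 9.59 and 9.92 with gapmer 1, against 10.65, 10.87, 11.03, 10.55 and 10.38 with the control gapmer. The groups did not overlap, and its log2 changes were -1.27 ± 0.13 and -1.08 ± 0.13 (SE). Cd5 fell to 9.80 ± 0.23 with gapmer 3 and 9.92 ± 0.04 with gapmer 1, against 10.83 ± 0.21 with the control gapmer (SD, n = 5 each), log2 changes of -1.03 and -0.91.

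The regulatory genes Foxp3, Icos and Ctla4 fell with both gapmers. Foxp3 read 6.86, 6.63, 6.44, 6.84 and 6.73 with gapmer 3 and 6.68, 6.48, 6.73, 7.12 and 6.86 with gapmer 1, against 7.70, 7.83, 7.65, 7.61 and 7.42 with the control gapmer. All 10 gapmer samples lay below the 5 control samples, with log2 changes of -0.94 ± 0.13 (adjusted p = 6.18e-05) and -0.87 ± 0.13 (SE, adjusted p = 0.000228, limma). Icos averaged 8.19 ± 0.08 with gapmer 3, 8.23 ± 0.27 with gapmer 1 and 9.09 ± 0.17 with the control gapmer, log2 changes of -0.90 and -0.86. Ctla4 averaged 6.13 ± 0.10, 6.14 ± 0.29 and 6.85 ± 0.15 in the same order (SD, n = 5 each), log2 changes of -0.71 and -0.70. For Icos and Ctla4 no gapmer sample reached a control sample.

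Cd28 fell less. It averaged 8.09 ± 0.10 with gapmer 3, 8.01 ± 0.20 with gapmer 1 and 8.65 ± 0.39 with the control gapmer (SD, n = 5 each), with log2 changes of -0.56 (adjusted p = 0.00793) and -0.64 (adjusted p = 0.00433, limma). The groups overlapped, because replicate 5 of the control group read 8.02. That array was the lowest of its group for all 10 genes.

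Cd4 did not pass with either gapmer. It read 9.67, 9.86, 9.95, 10.02 and 9.96 with gapmer 3 and 9.73, 9.80, 9.86, 9.77 and 9.87 with gapmer 1, against 9.97, 10.12, 10.64, 9.96 and 9.80 with the control gapmer. The log2 changes were -0.21 (95% interval -0.47 to 0.06, adjusted p = 0.333) and -0.29 (95% interval -0.55 to -0.03, adjusted p = 0.157), and the highest control value was that of the array high in thymus genes. Without that array they were -0.07 and -0.16.

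Cd8a changed alike by both measures, but the calls differed. The chosen feature changed by -1.14 with gapmer 3 (adjusted p = 0.239) and by -1.10 with gapmer 1 (adjusted p = 0.282), with an SE of 0.59 each. The residual SD in that fit is shared by all 6 groups, among them the PBS group with the single spot. When only the groups compared were fitted, the chosen feature passed with gapmer 3 (adjusted p = 0.0277, limma) but not with gapmer 1. The median of the 9 other features read 7.16, 7.09, 6.67, 7.06 and 7.13 with gapmer 3 and 6.99, 7.07, 7.22, 7.23 and 7.43 with gapmer 1, against 8.08, 8.24, 9.29, 8.03 and 7.83 with the control gapmer. Those groups did not overlap, and the log2 changes were -1.27 (adjusted p = 0.000142) and -1.11 (adjusted p = 0.000863, limma). Without the array high in thymus genes they were -1.02 (adjusted p = 3.84e-05) and -0.86 (adjusted p = 0.000351). For the 8 genes that passed, the changes without that array lay between -1.18 and -0.45 with gapmer 3 and between -0.999 and -0.53 with gapmer 1, and all 8 passed with each gapmer.

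**Figure D3:**
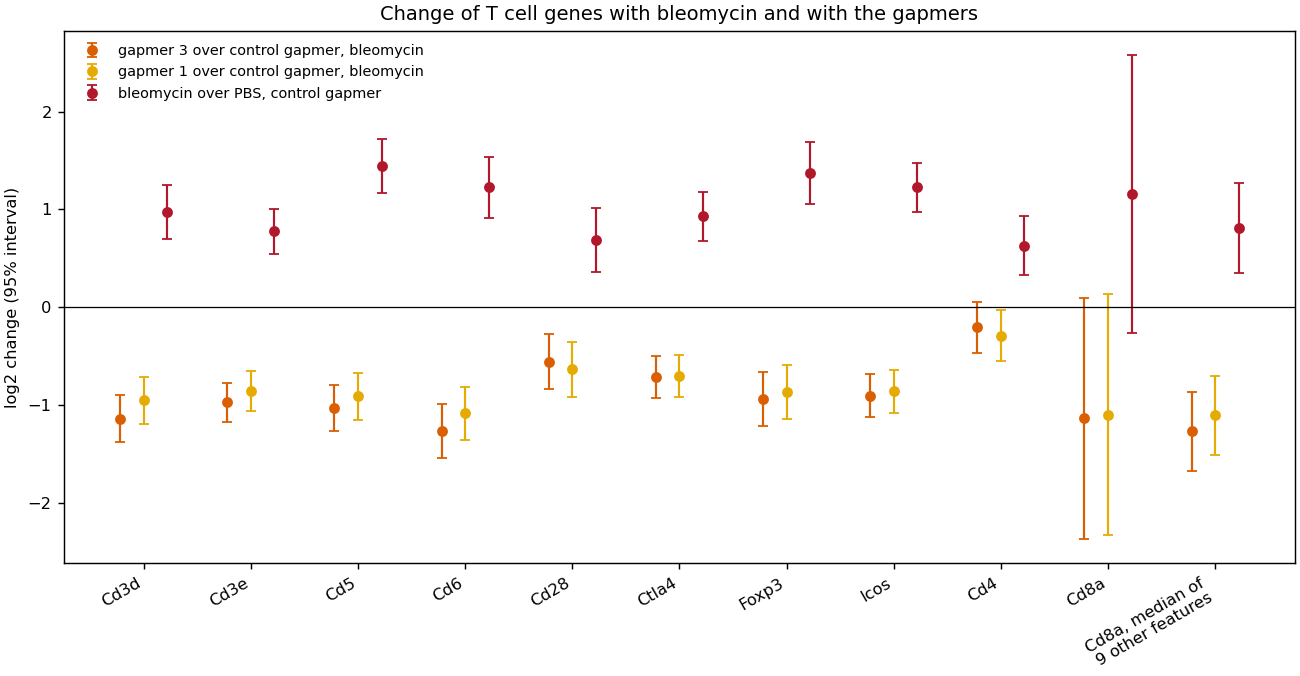
Log2 change with its 95% interval for the 10 genes and for the median of 9 other Cd8a features, for gapmer 3 and gapmer 1 over the control gapmer in bleomycin samples and for bleomycin over PBS with the control gapmer. For the 8 genes that passed throughout, the gapmer intervals lie below 0 and the bleomycin intervals above 0, while the intervals of the chosen Cd8a feature span 0.

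Gapmer 3 and gapmer 1 were also set against each other in bleomycin samples. By limma 0 of the 10 genes and 0.0% of all genes passed, and 0 of the 10 genes had an unadjusted p under 0.05. The log2 differences, gapmer 3 minus gapmer 1, lay between -0.19 for Cd3d (95% interval -0.43 to 0.05) and 0.09 for Cd4 (95% interval -0.18 to 0.35). For the chosen Cd8a feature the interval ran from -1.27 to 1.19.

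In PBS samples 0 of the 10 genes passed with gapmer 3, where 0.0338% of all genes were called, and 0 with gapmer 1, where 1.11% were called. In the gapmer 1 comparison the deviations of the 3 same-numbered pairs from their group means had r of 0.1027 to 0.1889. All 30 same-numbered pairs, these 3 included, ran from -0.41 to 0.42. Pairs of unlike number were not compared, so these values cannot show whether the samples pair. With the replicate number as a block 423 genes were called, against 230 without it, again with 0 of the 10. At an unadjusted p under 0.05 there was 1 gene with each gapmer, the chosen Cd8a feature with gapmer 3 and Cd5 with gapmer 1. Cd5 read 10.03, 10.04 and 9.64 with gapmer 1, against 9.40, 9.25 and 9.50 with the control gapmer. These samples did not overlap, as for 8.62% of all genes in that direction, and the log2 change of 0.52 had an adjusted p of 0.0747 (limma). With that block Cd5 had an adjusted p of 0.0779, and with array weights Cd5 passed (log2 change 0.53, adjusted p = 0.0391). With gapmer 3 Cd5 changed by 0.21 in PBS samples (adjusted p = 0.672). The chosen Cd8a feature changed by 2.07 with gapmer 3 (adjusted p = 0.398) with the spot at 12.45 included, and its 9 other features by -0.17.

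Bleomycin was compared with PBS under each gapmer as well. Under gapmer 3, 1 of the 10 genes was higher (7.02% of all genes) and 1 lower (6.85%), and under gapmer 1 none of the 10 passed by limma (9.48% of all genes were called), with 2 at an unadjusted p under 0.05. The gene that was higher under gapmer 3 was Icos, at 8.19 ± 0.08 in bleomycin and 7.82 ± 0.14 in PBS samples (SD, n = 5 and 3), a log2 change of 0.37 (adjusted p = 0.0426). Its call was lost when any one of the 8 arrays was left out, at adjusted p of 0.0505 to 0.211, and with the replicate number as a block (adjusted p = 0.095). The gene that was lower was Cd8a, at -2.06 (adjusted p = 0.0486), and without the array of the single spot it changed by -0.44 (adjusted p = 0.495). The 9 other Cd8a features changed by -0.29 (adjusted p = 0.466).

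Under gapmer 1 Icos changed by 0.33 (adjusted p = 0.0882) with the chosen feature and by 0.50 with its second feature (adjusted p = 0.00277, limma). Without replicate 3 of bleomycin with gapmer 1 the chosen feature passed as well (log2 change 0.39, adjusted p = 0.0496). Foxp3 changed by 0.38 under gapmer 3 (adjusted p = 0.109) and by 0.35 under gapmer 1 (adjusted p = 0.176). With array weights Foxp3 passed under gapmer 3 (0.39, adjusted p = 0.0285), and Cd8a lost its call there (-1.36, adjusted p = 0.0933). Cd3d, Cd3e, Cd6 and Cd28 changed by -0.22 to 0.11 under the gapmers, and none passed.

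The difference between these bleomycin responses was tested directly. With each gapmer the response of 7 of the 10 genes was smaller than with the control gapmer, where 1.64% of all genes had a lower response with gapmer 3 and 2.74% with gapmer 1. The 7 were Cd3d, Cd3e, Cd5, Cd6, Ctla4, Foxp3 and Icos both times. Cd5 had a difference of -1.24 with gapmer 3 (adjusted p = 0.000979) and -1.43 with gapmer 1 (adjusted p = 0.000158, limma), and Foxp3 of -0.997 and -1.03. With gapmer 3, Ctla4 (-0.71, adjusted p = 0.0264) lost its call without any one of 6 arrays, namely replicates 2 and 4 of bleomycin with the control gapmer, 1 and 3 of PBS with gapmer 3, and 1 and 3 of PBS with the control gapmer, at adjusted p of 0.0526 to 0.0739. Foxp3 lost its call with gapmer 3 without replicate 1 of PBS with the control gapmer (-0.93, adjusted p = 0.0529). With RNA integrity as a covariate Ctla4 also lost its call with gapmer 3 (-0.61, adjusted p = 0.0625). Without the array high in thymus genes all 7 passed with each gapmer (limma, adjusted p of 0.0359 or less).

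Cd28, Cd4 and Cd8a did not pass this test. Cd28 had differences of -0.75 with gapmer 3 (adjusted p = 0.064) and -0.60 with gapmer 1 (adjusted p = 0.101). With array weights Cd28 passed at -0.90 (adjusted p = 0.0048) and -0.77 (adjusted p = 0.00925), and Cd4 with gapmer 1 at -0.71 (adjusted p = 0.0209). With the position trend removed Cd28 passed with gapmer 3 (-0.76, adjusted p = 0.0235). Without replicate 5 of bleomycin with the control gapmer, its lowest sample, Cd28 passed at -0.91 (adjusted p = 0.00363) and -0.76 (adjusted p = 0.0066), and Cd4 passed with gapmer 1 (-0.69, adjusted p = 0.0328). The chosen Cd8a feature had differences of -3.21 (adjusted p = 0.0696) and -1.31 (adjusted p = 0.441), and with gapmer 3 it passed without replicate 5 of bleomycin with the control gapmer or without replicate 1 or 3 of PBS with gapmer 3 (adjusted p of 0.0304 to 0.041). These fits keep the spot at 12.45, and without its array the difference with gapmer 3 was -1.60 (adjusted p = 0.0603). The 9 other Cd8a features had differences of -1.10 (adjusted p = 0.0584) and -0.98 (adjusted p = 0.0585), and of -0.86 (adjusted p = 0.0281) and -0.74 (adjusted p = 0.0376) without the array high in thymus genes. Without that array Cd28 did not pass, at -0.65 with gapmer 3 (adjusted p = 0.0908) and -0.49 with gapmer 1 (adjusted p = 0.156). Nor did Cd4, at -0.30 (adjusted p = 0.34) and -0.47 (adjusted p = 0.0833, limma).

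**Figure D4:**
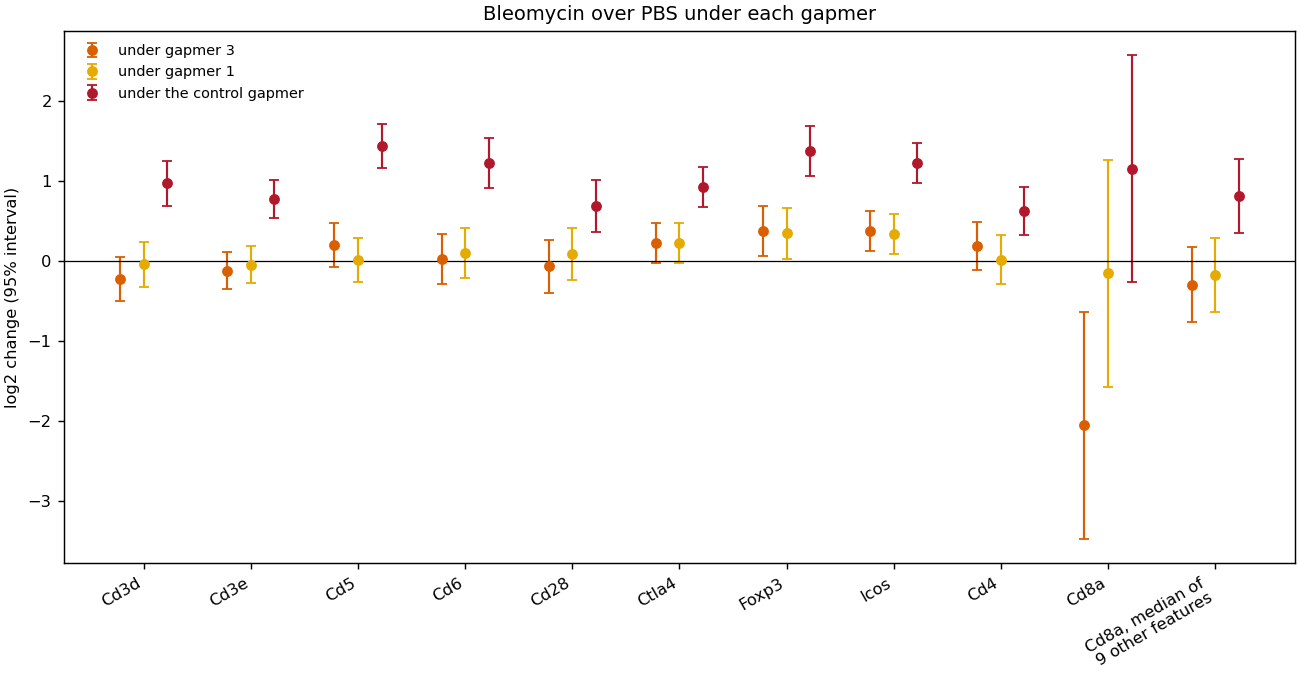
Log2 change of bleomycin over PBS with its 95% interval under gapmer 3, under gapmer 1 and under the control gapmer, for the 10 genes and for the median of 9 other Cd8a features. Under the control gapmer the intervals of 9 genes lie above 0, and under the other gapmers the changes lie between -0.22 and 0.38 for all genes but Cd8a, whose chosen feature reaches -2.06 under gapmer 3.

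The order of the 6 groups was read gene by gene as a description. For all genes but Cd8a, bleomycin with the control gapmer was the highest group. It did not overlap with the next group for these genes, except for Cd28 and Cd4. How many of all genes show this order was not counted, so it cannot be said whether it is unusual. For Icos and Ctla4 the bleomycin group with gapmer 3 came above the highest PBS group without overlap, by 0.29 and 0.21 in the means. For Cd3d, Cd3e, Cd5 and Cd6 each of the other 5 groups overlapped with its neighbour in this order. Groups further apart did not always overlap, as for Cd3d in bleomycin and PBS samples with gapmer 3. For Cd3d the lowest of these groups was bleomycin with gapmer 3, at 9.96 ± 0.21, next to PBS with the control gapmer at 10.13 ± 0.17 (SD, n = 5 and 3).

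Unequal changes of 2 related genes were tested with two-sided exact permutation tests on their difference per array, for 4 pairs and 3 comparisons, with p adjusted over the 12. With the chosen features none passed. The difference Foxp3 minus Cd3e changed by 0.60 in bleomycin over PBS samples (exact p = 0.0357, adjusted p = 0.107), and by 0.03 with gapmer 3 and -0.01 with gapmer 1. Icos minus Cd28 changed by 0.54 in bleomycin over PBS samples (exact p = 0.0357, adjusted p = 0.107). These are the smallest p that 5 against 3 samples allow, and 5 against 5 samples allow 0.00794.

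With the 9 other Cd8a features, Cd4 minus Cd8a was 2.87 ± 0.28 with gapmer 3, 2.62 ± 0.13 with gapmer 1 and 1.80 ± 0.25 with the control gapmer in bleomycin samples (SD, n = 5 each). It differed by 1.06 and 0.81, in both cases without overlap (exact p = 0.00794, the smallest possible, adjusted p = 0.0476). Cd8a was thus lower by more than Cd4 with both gapmers by these features, whereas the chosen feature gave 0.93 and 0.81 with an adjusted p of 0.107. Without the array high in thymus genes the differences were 0.95 and 0.70 (exact p = 0.0159, the smallest that 5 against 4 samples allow, adjusted p = 0.0476). In that setting Icos minus Cd28 also passed, at -0.46 with gapmer 3 and -0.34 with gapmer 1 (exact p = 0.0159, adjusted p = 0.0476).

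Genes that work beside the 10 were counted in the same comparisons, in which 14.5% of all genes rose and 19.3% fell with bleomycin, 5.63% rose and 7.52% fell with gapmer 3, and 5.47% rose and 5.08% fell with gapmer 1. Of 17 measured genes of the receptor complex and its proximal signalling, 8 rose and none fell with bleomycin under the control gapmer, and 11 fell with each gapmer in bleomycin samples. Their median log2 changes were 0.50, -0.50 with gapmer 3 and -0.54 with gapmer 1, beside -0.02, 0.01 and 0.02 over all genes. Lat, the adaptor that assembles the signal, rose by 1.06 with bleomycin and fell by 0.97 with gapmer 3 and 0.94 with gapmer 1 on the log2 scale. Zap70, the kinase that binds the phosphorylated CD3 chains, rose by 0.62 and fell by 0.68 and 0.52, and Cd3g rose by 0.89 and fell by 1.02 and 0.94.

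Regulatory T cell genes other than Foxp3, Ctla4 and Icos went the same way in part. Of 15 measured, 10 rose and 1 fell with bleomycin, and 7 fell and none rose with each gapmer. Il2ra, the high-affinity interleukin-2 receptor chain, averaged 7.60 with gapmer 3, 7.78 with gapmer 1 and 8.98 with the control gapmer in bleomycin samples, and 7.25 in PBS samples with the control gapmer. Its log2 change with bleomycin was 1.74, and -1.38 and -1.21 with gapmers 3 and 1. Tnfrsf4 and Tnfrsf18, receptors also known as OX40 and GITR, rose by 1.77 and 1.37 with bleomycin and fell by 0.96 and 1.04 with gapmer 3. Many of these genes are also expressed by activated T cells.

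Among 10 costimulatory and checkpoint receptors, 7 rose and 1 fell with bleomycin, while 7 fell with gapmer 3 and 6 with gapmer 1. Pdcd1, which encodes the inhibitory receptor PD-1, had a log2 change of 2.08 with bleomycin (8.51 in bleomycin and 6.43 in PBS samples, adjusted p = 1.33e-08), and of -1.17 with gapmer 3 and -1.04 with gapmer 1. Of 7 genes listed as ligands, 4 rose with bleomycin and 3 fell with each gapmer. Icosl, the ligand of Icos, rose by 0.46 and fell by 0.49 with gapmer 3 and 0.52 with gapmer 1. Cd86 and Cd80, the shared ligands of Cd28 and Ctla4, rose by 1.29 and 0.35 with bleomycin and did not pass with the gapmers, at -0.29 and -0.12 with gapmer 3 (adjusted p = 0.428 and 0.382).

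Homing and survival receptors followed as well, 7 of 8 rising with bleomycin and 4 falling with each gapmer. Ccr6, a chemokine receptor of memory T cells and B cells, rose by 1.36 and fell by 1.39 with gapmer 3 and 1.27 with gapmer 1. Of 9 T cell transcription factors 4 rose and 4 fell with bleomycin. Bcl11b and Tcf7, T lineage factors, rose by 1.00 and 0.71, and Gata3 and Tbx21, which direct helper subsets and are also expressed in other lung cells, fell by 0.62 and 0.50. With the gapmers 5 of the 9 fell with gapmer 3 and 4 with gapmer 1. By limma 0 of 8 T cell cytokine genes passed in these 3 comparisons, with 1 at an unadjusted p under 0.05 with bleomycin and 0 with each gapmer, and 4 to 6 of them lay below 6.11 in each group.

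Markers of B cells and of lymphoid tissue moved with the 10 genes with bleomycin under the control gapmer and with the gapmers in bleomycin samples. Their part in the results was not tested. Of 8 B cell markers, 5 rose with bleomycin and 8 fell with each gapmer. Their summed intensity was 7665 to 13750 with gapmer 3, 11110 to 14230 with gapmer 1 and 18730 to 24430 with the control gapmer in bleomycin samples, and 14750 to 16800 in PBS samples with the control gapmer. Lymphoid tissue and high endothelial venule markers numbered 6 and summed to 6378 to 10130, 8693 to 10760, 14960 to 23390 and 9292 to 11610 in those groups in the same order. Cr2 is counted in both sets. Glycam1, a mucin-like protein of high endothelial venules, averaged 6.20 with gapmer 3, 6.07 with gapmer 1 and 9.20 with the control gapmer in bleomycin samples, and 5.89 in PBS samples, below the dim limit. None of the 8 B cell markers lay below that limit in any group. For bleomycin over PBS under gapmer 3, 4 of the 8 were lower (6.85% of all genes), and 0 under gapmer 1. Their median log2 changes there were -0.39 and -0.21, beside 0.11 and 0.05 for the 10 T cell genes. Those of the lymphoid tissue markers were 0.14 and 0.05.

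Leukocyte genes in general rose too. Of 8 such genes 7 rose with bleomycin and 6 fell with each gapmer, with median log2 changes of 0.69, -0.47 with gapmer 3 and -0.42 with gapmer 1, beside 1.06, -0.96 and -0.86 for the 10 T cell genes. Of 9 NK cell markers none rose and 7 fell with bleomycin, and by limma 0 passed with each gapmer, with 2 at an unadjusted p under 0.05. Gzma, a granzyme of NK and cytotoxic cells, fell by 1.42 with bleomycin. Of 9 dendritic cell markers 4 rose and 1 fell with bleomycin, and 1 rose and 1 fell with each gapmer. Gamma-delta T cell markers numbered 3, of which 2 fell with bleomycin, and 1 rose and 1 fell with each gapmer. The one that fell with the gapmers, Blk, is also counted among the B cell markers. Of 3 type 2 innate lymphoid cell markers 2 rose with bleomycin, and 2 fell with gapmer 3 and 1 with gapmer 1. Of 6 lung markers 3 fell with bleomycin, and 1 rose with gapmer 3 and 2 with gapmer 1. Skeletal muscle markers summed to 1960 to 79250 with gapmer 3, 21260 to 31280 with gapmer 1 and 13150 to 16140 with the control gapmer in bleomycin samples. They summed to 31210 to 75810 in PBS samples with the control gapmer, and 2 of 8 fell with bleomycin. In bleomycin samples 1 of the 8, Myh2, rose with gapmer 1 (log2 change 4.73, adjusted p = 0.0339, limma), and 0 passed with gapmer 3.

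The genes whose levels were most like the mean of the 10 over the 24 arrays, among 10359 genes above the median level, were Cd3g (Pearson r = 0.929), Fgd3 (0.919), Fcho1 (0.913), Socs1 (0.913) and Dusp2 (0.911). The arrays share the group differences, so these values describe the groups as much as the samples. After removal of the group means the closest were Cnot6 (0.813), Socs1 (0.786), Rab37 (0.783), Casp4 (0.775) and Cd3g (0.767). That mean holds the Cd8a spot at 12.45. With the other Cd8a features in it, the closest by deviations were Cd3g (0.942), Scml4 (0.831), Gmfg (0.818), Vav1 (0.810) and Grap2 (0.794), of which 4 were not among the 5 named with the chosen feature. Cd3g encodes another chain of the CD3 complex.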

How the data were processed

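Total RNA of 24 whole-lung samples was measured on one-colour arrays. The deposited values are log2 intensities that the authors had quantile-normalised, as the values show (array medians of 6.48 to 6.50). The submitters' processing notes name limma, with no version, and background correction is not given in the sources used here. Symbols came from the platform annotation, updated through RefSeq for GRCm38.p6. The 62976 features gave 20728 genes, the feature with the highest mean standing for a gene, with no filter on level.

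All genes were tested in 1 fit with limma 3.58.1 in R 4.3.3 (lmFit, eBayes, two-sided, 6 group means, 18 residual degrees of freedom), with Benjamini-Hochberg adjustment over all genes per comparison, and called at an adjusted p under 0.05. Intervals are 95%. Differences of gene pairs were compared by exact permutation in Python 3.11.15 with SciPy 1.17.1. The fit was tested on simulated data. The 10 genes and all lists were chosen with earlier results of these data known. Named are all 10 genes, up to 4 called genes per list and comparison by smallest adjusted p, and the 5 genes most like the 10 by each measure. The thymus genes given for single arrays and Cd8a's other features were singled out after their values were seen. Whether same-numbered samples pair was checked by the correlation of their deviations from the group means, which lay between -0.41 and 0.42, with 13 of 30 over 0.1. All pairs were over 0.1 for gapmer 1 over the control gapmer in PBS samples alone, so the replicate block is given there. RNA integrity numbers, from the labels, served as a covariate in 1 alternative.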

Additional observations from a re-analysis of the deposited data

Results flagged for a closer look

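In 33 sets of 1 gene in a group of 5 samples, 4 held a sample far from the others, and chance alone marks about 1 in 20 sets. In replicate 3 of bleomycin with gapmer 3, Cd3d read 9.60, Cd5 9.40 and the median of the 9 other Cd8a features 6.67, each the lowest of its group by a wide gap. In replicate 3 of bleomycin with the control gapmer, the array high in thymus genes, the 9 other Cd8a features read 9.29, the highest of its group.

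The bleomycin response differed between a Dnm3os gapmer and the control gapmer for 7 genes, by limma's test of that difference. With gapmer 3 the log2 differences were -1.19 for Cd3d, -0.90 for Cd3e, -1.24 for Cd5, -1.20 for Cd6, -0.71 for Ctla4, -0.997 for Foxp3 and -0.85 for Icos. With gapmer 1 they were -1.01 for Cd3d, -0.82 for Cd3e, -1.43 for Cd5, -1.12 for Cd6, -0.71 for Ctla4, -1.03 for Foxp3 and -0.89 for Icos. Both sets share the control gapmer samples.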

How the results depend on the processing

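With any array left out, 9 genes were called for bleomycin over PBS under the control gapmer and 8 with each gapmer in bleomycin samples, and under the other settings 9 to 10 and 8 to 9. No setting turned the direction of a called value. In PBS samples, array weights called 1 gene with gapmer 1. For bleomycin over PBS under gapmer 1, the mean or the median of all features called 1, and leaving out an array 0 to 1. Under gapmer 3, where 2 were called, the mean or median of all features, a variance trend with a robust prior, and fitting only the groups compared each called 1, and leaving out an array 0 to 1. The replicate number as a block called 0 there, a comparison in which same-numbered samples had r of -0.41 to 0.24. It left the number of the 10 genes called in the other comparisons within 1.5 times, and Cd4 passed with it for the response difference with gapmer 1 (-0.61, adjusted p = 0.0212). The genes with a smaller response numbered 5 to 9 with gapmer 3 and 7 to 9 with gapmer 1 when an array was left out. Cd4 minus Cd8a passed with the mean of all features, at 1.06 with gapmer 3 and 0.94 with gapmer 1, and with the median, at 1.11 and 1.00. The cause of these moves was not tested. Over all genes, array weights moved the calls with gapmer 3 to 5121 from 2726 and with gapmer 1 to 4231 from 2186 in bleomycin samples, and with gapmer 1 in PBS samples to 732 from 230. Fitting only the groups compared gave 1278 with gapmer 1 in bleomycin samples, 68 with gapmer 1 and 1 with gapmer 3 in PBS samples, and 485 for bleomycin under gapmer 1. The RNA integrity covariate gave 424 with gapmer 1 and 4 with gapmer 3 in PBS samples, 898 for bleomycin under gapmer 1 and 287 for the response difference with gapmer 3. The replicate block gave 423 with gapmer 1 in PBS samples and 1115 for the response difference with gapmer 3, where array weights gave 1763. Array weights also gave 4479 for bleomycin under gapmer 3 and 3251 for the response difference with gapmer 1. Cd4 lost its bleomycin call with the median of all features (0.16, adjusted p = 0.0903). Leaving out an array moved the all-gene counts in bleomycin samples to between 1775 and 3065 with gapmer 3 and 1209 and 3092 with gapmer 1, and in PBS samples to between 2 and 30 with gapmer 3 (7 with all arrays) and 10 and 684 with gapmer 1. It gave 1068 to 2273 for bleomycin under gapmer 1 (1966 with all arrays), 246 to 1161 for the response difference with gapmer 3 (641) and 802 to 2576 with gapmer 1 (1597). Ctla4 was below the dim limit in PBS samples, where its signal limits what can be measured.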
